A study of Mus musculus with 16 samples.

Results

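Myelin is the multilayered membrane that oligodendrocytes wrap around axons in the brain, and the genes described here encode proteins that these cells need to build, seal and maintain it. The genes are Mbp, Mobp, Mag, Mog, Cnp, Cldn11, Mal, Opalin and Klk6, which were chosen by symbol: every array probe annotated with one of these 9 symbols was taken, 23 of 45281 probes and 9 of the 19057 genes with a probe of a single symbol. Of the 23 probes, 22 gave a signal above background on at least 3 of the 16 arrays and were tested. The exception was Mal probe ILMN_1252139, which was detected on 0 arrays.

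The hippocampus of male C57BL/6J mice was measured on 16 Illumina bead arrays. Mice of 12 or 2 months received THC, the main psychoactive cannabinoid of cannabis, at 3 mg per kg and day, or the vehicle of ethanol, cremophor and saline, for 28 days from an osmotic minipump under the skin. All groups were tested in a water maze between days 33 and 41, and tissue was taken on day 46, after the drug had been stopped. The 4 groups were THC at 12 months (5 arrays), vehicle at 12 months (5 arrays), THC at 2 months (3 arrays) and vehicle at 2 months (3 arrays), and the labels do not tie each array to a separate mouse, so p-values measure the spread between these arrays.

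The hippocampus is mostly grey matter, and its myelin lies in the fibre tracts that border and cross it. Mature oligodendrocytes express the myelin genes together under the transcription factors Sox10 and Myrf, while their precursors, marked by genes such as Pdgfra and Cspg4, express little of them. In RNA from whole tissue, fewer cells of a type and less RNA per cell cannot be told apart.

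Each array had between 41.1% and 45.9% of its probes above background, median scanner values of 6.62 to 7.02 on the log2 scale, and correlations of 0.959 to 0.99 with the other arrays of its group. The arrays lay on 4 slides, as their barcodes showed, and slide 4 alone held 1 array of each group. Slide 3 held 3 THC arrays of 12 months and 1 THC array of 2 months but no vehicle array, and slide 2 had no THC array of 12 months. THC and vehicle at 12 months met on slide 1 (1 array against 2) and slide 4 (1 against 1). Of 12 markers of hippocampal neurons, the labelled tissue, 10 were detected and tested, and Neurod6 was detected on 0 arrays. The mean level of these neuron markers ran from 10.19 to 10.59 with THC and from 9.43 to 10.43 with vehicle at 12 months, with vehicle replicate 5 the lowest of all 16 arrays. Values below are background-corrected, quantile normalized log2 intensities, and a level is never compared between probes.

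The promoter windows of Mag, Mobp, Cnp, Opalin and Klk6 are shown because they hold letters known as motifs of the oligodendrocyte factors. The windows run from 250 bases before to 50 bases after the start of the gene in RefSeq on mouse build GRCm38.p6. They are written 5′ to 3′ in the direction of the gene, with capitals marking each match on either strand to the SOX letters ACAAAG or ACAATG and to the MYRF letters CTGGCAC.
Mag (chr7:30914814-30915113, minus strand): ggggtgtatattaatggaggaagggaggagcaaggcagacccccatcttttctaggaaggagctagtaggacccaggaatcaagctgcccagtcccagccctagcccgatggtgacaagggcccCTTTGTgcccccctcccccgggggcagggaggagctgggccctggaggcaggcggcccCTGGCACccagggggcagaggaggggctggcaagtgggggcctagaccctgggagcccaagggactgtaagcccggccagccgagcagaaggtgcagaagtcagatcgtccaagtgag
Mobp (chr9:120149492-120149791, plus strand): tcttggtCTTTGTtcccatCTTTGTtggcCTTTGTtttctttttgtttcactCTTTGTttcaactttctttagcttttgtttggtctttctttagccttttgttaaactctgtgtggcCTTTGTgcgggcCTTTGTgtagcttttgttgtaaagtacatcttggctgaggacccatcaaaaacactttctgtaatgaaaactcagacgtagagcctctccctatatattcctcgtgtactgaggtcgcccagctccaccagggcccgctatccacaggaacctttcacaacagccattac
Cnp (chr11:100574689-100574988, plus strand): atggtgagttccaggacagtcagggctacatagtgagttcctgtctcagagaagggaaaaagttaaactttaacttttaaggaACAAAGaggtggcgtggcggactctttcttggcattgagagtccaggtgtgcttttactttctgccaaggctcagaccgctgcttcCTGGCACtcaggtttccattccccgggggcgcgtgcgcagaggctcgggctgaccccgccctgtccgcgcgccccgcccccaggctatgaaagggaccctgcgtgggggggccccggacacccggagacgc
Opalin (chr19:41077064-41077363, minus strand): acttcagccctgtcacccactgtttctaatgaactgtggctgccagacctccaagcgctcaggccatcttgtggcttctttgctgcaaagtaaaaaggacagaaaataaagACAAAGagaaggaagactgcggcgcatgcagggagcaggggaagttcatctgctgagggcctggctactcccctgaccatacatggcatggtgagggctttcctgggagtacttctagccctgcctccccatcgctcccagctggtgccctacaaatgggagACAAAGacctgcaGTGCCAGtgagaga
Klk6 (chr7:43824294-43824593, plus strand): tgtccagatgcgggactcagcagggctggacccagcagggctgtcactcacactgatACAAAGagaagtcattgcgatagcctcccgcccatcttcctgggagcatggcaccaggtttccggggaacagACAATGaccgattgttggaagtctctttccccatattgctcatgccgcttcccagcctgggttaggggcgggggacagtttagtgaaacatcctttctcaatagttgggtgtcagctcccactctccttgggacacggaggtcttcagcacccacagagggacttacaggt

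The 8 genes searched had 11 windows between them, since a gene can have several starts, and 1 window of each of 5 genes is printed. A SOX match was found in 6 of the 11 windows, which belong to Mag, Mobp, Cnp, Opalin and Klk6, and in 28.6% of all 32851 promoter windows of the same length. The MYRF letters were found in 4 of the 11, which belong to Mag, Cnp and Opalin, and in 5.01% of all windows. Mag windows 1 and 2 overlap and hold the same SOX and MYRF letters, which are counted for each window. In the Mobp window the SOX letters stood 6 times, all on the strand opposite to the gene. Counting the first base of the gene as 1 and the base before it as -1, Mag held a SOX match at base -126 and a MYRF match at base -68. Opalin had SOX matches at bases -139 and 24 and a MYRF match at base 37, and also held the E-box letters CAGCTG, found in 16.3% of windows. No 2 matches overlapped. These matches describe letters in the window and not binding.

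The 12-month vehicle group had the lowest mean of the 4 groups for all 9 genes, taking each gene by its brightest probe, while 23.0% of the 12020 genes tested had their lowest mean there. With THC at 12 months all 9 genes were higher than with vehicle, by a median of 0.48 on the log2 scale, where 45.8% of all genes were higher and the median over all genes was -0.018. The hippocampal neuron markers also lay higher in this comparison, 8 of 10 with a median of 0.47. In vehicle mice all 9 were lower at 12 months than at 2 months, with a median log2 difference of -0.40, where 49.1% of all genes were higher. Among all 22 probes 19 were lower with age and 3 were higher. The higher ones were Mbp probe ILMN_3011353 by 0.26, Mag probe ILMN_1241209 by 0.16 and Mobp probe ILMN_1223628 by 0.11. None of these differences passed the test of limma (two-sided, p adjusted by Benjamini and Hochberg over all 22625 probes, threshold 0.05). The 2 comparisons share the 5 vehicle arrays of 12 months, which enter them with opposite sign.

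**Figure D1:**
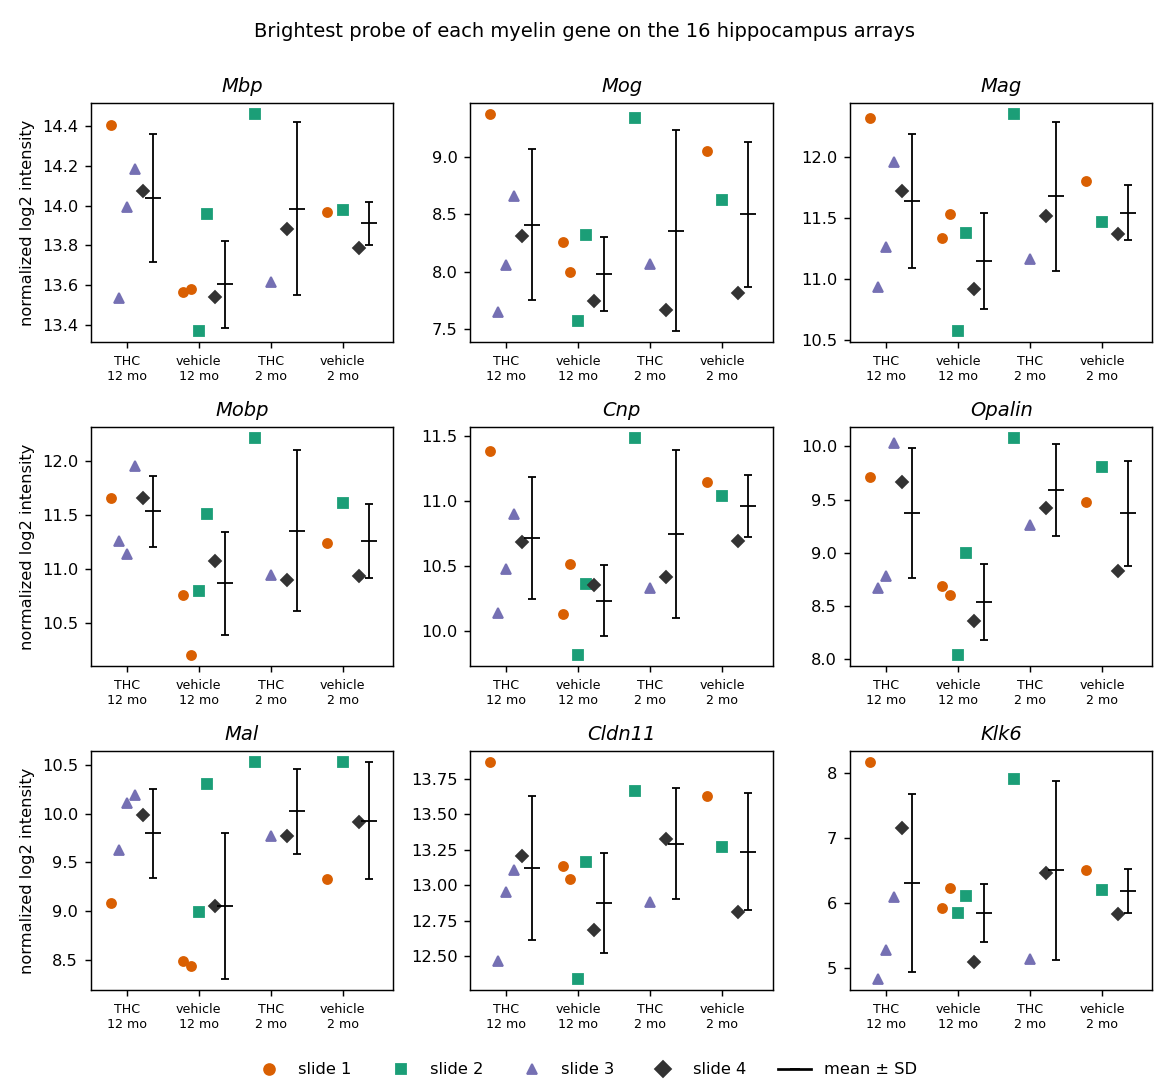
Normalized log2 intensity (vertical axis) of the brightest probe of each myelin gene on each array, by group from left to right THC at 12 months, vehicle at 12 months, THC at 2 months and vehicle at 2 months, with marker shape and colour for the slide and bars for the mean and SD. The vehicle group of 12 months has the lowest mean in all 9 panels, and Klk6 runs from 4.83 to 8.17 within the THC group of 12 months.

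Mbp encodes myelin basic protein, which holds the cytoplasmic faces of compact myelin together, and its locus also makes transcripts outside oligodendrocytes. The brightest Mbp probe, ILMN_2737200, read 14.41, 13.54, 13.99, 14.19 and 14.07 with THC at 12 months, against 13.57, 13.58, 13.37, 13.96 and 13.54 with vehicle at 12 months. At 2 months it read 14.46, 13.61 and 13.88 with THC, against 13.97, 13.98 and 13.79 with vehicle. The single THC array that fell among the vehicle arrays at 12 months was replicate 2, at 13.54. The log2 difference between THC and vehicle at 12 months was 0.44 ± 0.18 (SE, 1.35-fold, adjusted p = 0.916 in limma), and between 12 and 2 months in vehicle mice -0.31 ± 0.20 (adjusted p = 1).

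Mobp, a small protein on the cytoplasmic side of compact myelin, read 11.66, 11.26, 11.14, 11.95 and 11.65 with THC at 12 months, against 10.76, 10.21, 10.80, 11.51 and 11.07 with vehicle. Of the vehicle arrays, replicate 4 alone lay inside the THC range. At 2 months Mobp read 12.21, 10.95 and 10.90 with THC and 11.24, 11.61 and 10.93 with vehicle. The difference at 12 months was 0.66 ± 0.27 on the log2 scale (1.58-fold), and the other 4 Mobp probes were higher with THC as well, by 0.31 to 0.52. In vehicle mice the age difference was -0.39 ± 0.31 for this probe, while Mobp probe ILMN_1223628 was higher by 0.11 ± 0.37 at 12 months.

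Mal, a membrane protein that sorts lipid rafts and their cargo in oligodendrocytes, read 9.08, 9.63, 10.11, 10.20 and 9.99 with THC at 12 months, against 8.48, 8.44, 8.99, 10.30 and 9.05 with vehicle. All 5 THC arrays lay above 4 of the 5 vehicle arrays, and vehicle replicate 4 was the highest of the 10. At 2 months Mal read 10.53, 9.77 and 9.77 with THC and 9.33, 10.54 and 9.92 with vehicle. The THC difference at 12 months was 0.75 ± 0.33 (1.68-fold) and the age difference in vehicle mice -0.88 ± 0.38 (0.544-fold). The second Mal probe, ILMN_1224029, gave 0.60 ± 0.27 and -0.43 ± 0.31 for the same comparisons, and the vehicle groups of the 2 ages did not overlap in it.

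Mag, the adhesion molecule of the inner myelin layer that faces the axon, read 12.32, 10.94, 11.26, 11.96 and 11.73 with THC at 12 months, against 11.34, 11.54, 10.58, 11.38 and 10.92 with vehicle. Mog, a glycoprotein of the outermost myelin surface, read 9.375, 7.650, 8.061, 8.664 and 8.308 with THC at 12 months, against 8.262, 8.002, 7.575, 8.322 and 7.745 with vehicle. Both genes overlapped widely between the groups, with THC replicate 1 at the top and THC replicate 2 near the bottom. The differences were 0.49 ± 0.27 for Mag and 0.43 ± 0.34 for Mog. At 2 months Mag read 12.36, 11.17 and 11.52 with THC and 11.80, 11.47 and 11.37 with vehicle, and Mog read 9.34, 8.07 and 7.67 with THC and 9.06, 8.63 and 7.81 with vehicle. In vehicle mice the age differences were -0.40 ± 0.31 for Mag and -0.52 ± 0.39 for Mog, and at both ages the THC and vehicle groups overlapped.

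Cnp encodes an enzyme bound to the membranes of non-compact myelin, 2',3'-cyclic nucleotide phosphodiesterase. Its brightest probe read 11.39, 10.14, 10.48, 10.90 and 10.68 with THC at 12 months, 10.13, 10.52, 9.82, 10.36 and 10.35 with vehicle at 12 months, 11.49, 10.33 and 10.42 with THC at 2 months, and 11.15, 11.04 and 10.70 with vehicle at 2 months. The vehicle groups of the 2 ages did not overlap in this probe. The age difference was -0.73 ± 0.28 (0.604-fold, adjusted p = 1), and the THC difference at 12 months 0.48 ± 0.24 (1.40-fold). In the second Cnp probe, ILMN_1257097, the THC and vehicle groups of 12 months did not overlap: 8.39, 7.64, 7.74, 8.28 and 7.88 with THC, against 7.50, 7.58, 7.12, 7.42 and 7.59 with vehicle. It was the only one of the 22 probes with no overlap between these groups, where 0.194% of all probes lay higher in this way, and its difference was 0.54 ± 0.18 (1.46-fold, adjusted p = 0.916 in limma).

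Cldn11, the claudin that forms the tight junctions between myelin layers, read 13.87, 12.47, 12.95, 13.11 and 13.21 with THC at 12 months, against 13.13, 13.05, 12.34, 13.16 and 12.69 with vehicle. At 2 months it read 13.66, 12.89 and 13.33 with THC and 13.63, 13.27 and 12.81 with vehicle. It had the smallest THC difference of the 9 genes at 12 months, 0.25 ± 0.24, and an age difference in vehicle mice of -0.36 ± 0.28. Without THC replicate 1 the THC difference was 0.059, and without THC replicates 1 and 5 and vehicle replicate 2 of 2 months it was -0.033.

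Opalin, a sialylated membrane protein of oligodendrocytes in the central nervous system, read 9.71, 8.67, 8.78, 10.03 and 9.67 with THC at 12 months, against 8.69, 8.60, 8.04, 9.00 and 8.36 with vehicle. At 2 months it read 10.08, 9.26 and 9.42 with THC and 9.48, 9.80 and 8.83 with vehicle. THC replicates 1, 4 and 5 of 12 months lay above every vehicle array of that age, and THC replicates 2 and 3 lay among the vehicle arrays. Opalin had the largest THC difference at 12 months, 0.83 ± 0.27 (1.78-fold, adjusted p = 0.916), and an age difference in vehicle mice of -0.83 ± 0.32 (0.561-fold, adjusted p = 1). Opalin averaged 9.37 ± 0.61 (SD, n = 5) with THC at 12 months, against 9.37 ± 0.49 (SD, n = 3) with vehicle at 2 months.

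Klk6 encodes a secreted serine protease that oligodendrocytes make and that can cleave myelin proteins. On the background-corrected scale used here it varied the most of the 9 genes, with a range of 3.35 and an SD of 0.941. Over the same 16 arrays Mbp had a range of 1.10 and an SD of 0.322. In the authors' series matrix Klk6 ran only from 6.82 to 8.53, a narrower span than that of Mobp, 10.28 to 12.22. The brighter probe, ILMN_2775176, read 8.17, 4.83, 5.28, 6.09 and 7.15 with THC at 12 months, against 5.92, 6.23, 5.85, 6.11 and 5.09 with vehicle. At 2 months it read 7.90, 5.14 and 6.46 with THC, against 6.51, 6.20 and 5.84 with vehicle. At each age the THC group held both the highest and the lowest array, and every vehicle array lay between them. The mean difference at 12 months was 0.46 ± 0.55 (adjusted p = 0.927 in limma) and at 2 months 0.32 ± 0.71 (adjusted p = 0.935). In THC replicate 2 of 12 months the probe was only just detected, with a detection p of 0.047. The second Klk6 probe ran with the first (r = 0.964 over 16 arrays), and Klk6 belongs to a family of related proteases, for which cross-hybridisation was not tested.

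Without the slides taken into account, 0 of the 22 probes passed at 12 months, where 0% of all probes did, and the smallest adjusted p among them was 0.916. At an unadjusted p under 0.05, 8 of the 22 were higher, namely 1 probe of Cnp, 1 of Opalin, both of Mal and 2 each of Mbp and Mobp, where 1.87% of all probes were. When the slide entered the limma model as a block, both Klk6 probes passed, by 2.04 ± 0.25 (adjusted p = 0.0124) and 1.65 ± 0.27 (adjusted p = 0.0314), where 0.137% of all probes passed. The same model called 4 genes of the marker lists: Drd2, the dopamine receptor marking striatum, by 1.37 ± 0.24 (adjusted p = 0.0432), Slc6a3, the dopamine transporter, by 2.73 ± 0.46 (adjusted p = 0.0401), Nr4a2, a transcription factor of midbrain neurons, by -1.37 ± 0.24 (adjusted p = 0.0474), and the hippocampal neuron marker Mpped1 by -0.99 ± 0.14 (adjusted p = 0.0259). The choroid plexus median was 2.45 with the block. The other 20 myelin probes did not pass with the block, at adjusted p of 0.0771 to 0.524 in limma. The differences of the 9 genes then ran from 0.73 to 2.04, with a median of 1.00. On slide 1, THC replicate 1 exceeded the mean of vehicle replicates 1 and 2 in Klk6 by 2.10, and on slide 4 THC replicate 5 exceeded vehicle replicate 5 by 2.06. All 9 genes were higher with THC on both slides, with medians of 1.06 and 0.58, where 47.4% and 51.8% of all genes were higher. The Klk6 call was lost when THC replicate 1 (adjusted p = 0.184), THC replicate 5 (0.071) or vehicle replicate 1 (0.0527) was left out of the model with the block, and without a block the difference was -0.44 when THC replicates 1 and 5 and vehicle replicate 2 of 2 months were left out. With the slide as a random block 0 of the 22 probes passed, and the smallest adjusted p was 0.429.

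**Figure D2:**
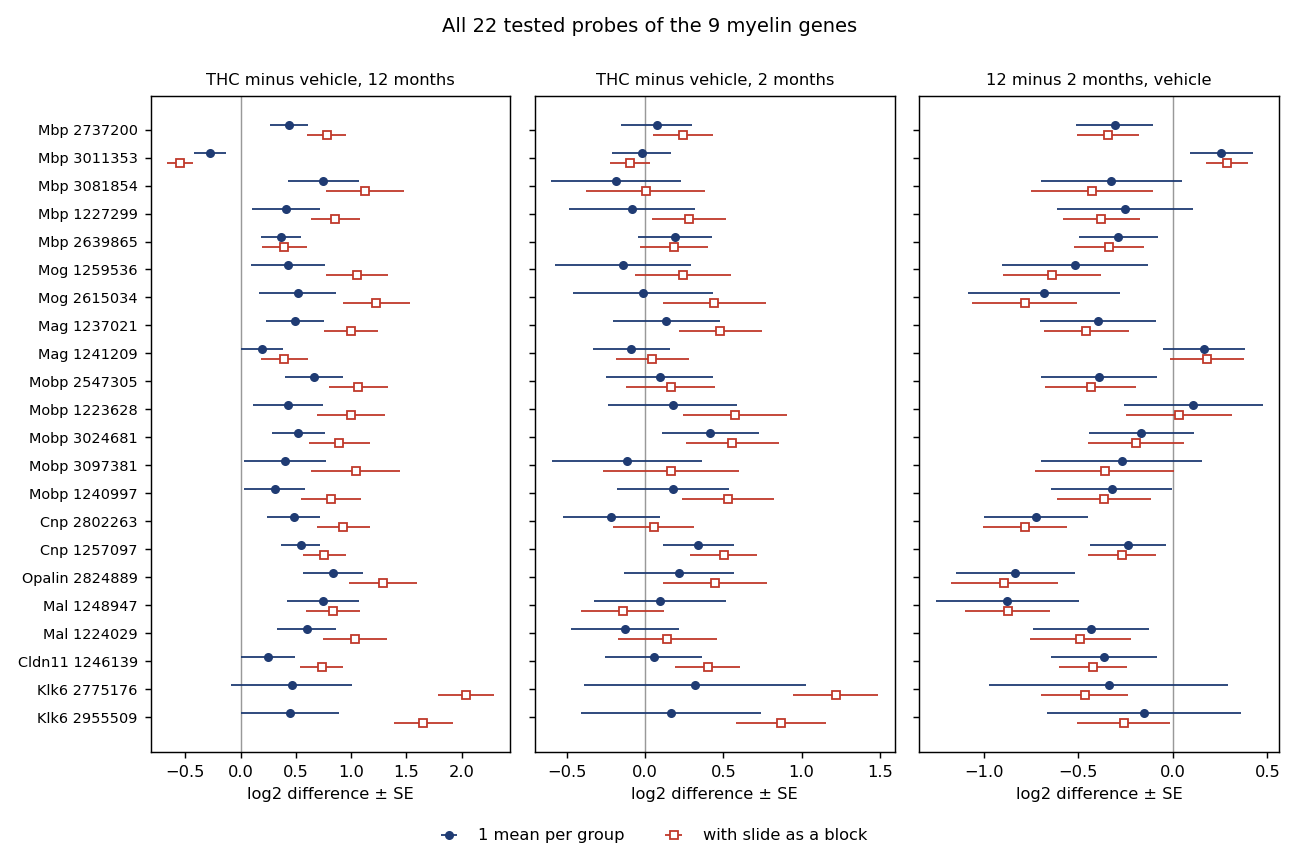
Log2 differences with their SE (horizontal axes) for the 22 tested probes, without a slide block (filled circles) and with it (open squares), for THC minus vehicle at 12 months, THC minus vehicle at 2 months and 12 minus 2 months in vehicle mice. In the left panel 21 of 22 probes lie right of 0, where 48.8% of all probes do, and Mbp probe ILMN_3011353 lies left of it, and the Klk6 probes move furthest with the block.

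Markers of choroid plexus and striatum were high in the same 2 arrays, THC replicates 1 and 5 of 12 months, while markers of some other tissues were lower with THC. All 9 tested choroid plexus markers were higher with THC than with vehicle at 12 months, and their mean level was 8.38 and 8.72 in THC replicates 1 and 5, against 4.96 to 5.60 in the other THC arrays and 5.01 to 7.25 in the vehicle arrays. All 7 tested striatum markers were higher too, with mean levels of 8.23 and 7.75 in these 2 arrays, against 6.92 to 7.20 in the other THC arrays and 6.84 to 7.09 with vehicle. Of 8 midbrain dopamine neuron markers 4 were tested, and their mean level ran from 6.20 to 7.19 with THC and from 6.12 to 6.55 with vehicle at 12 months, while Pitx3 and Foxa2 were detected on 0 arrays. Th and Slc18a2 were detected on 2 arrays each and were not tested either. Without THC replicates 1 and 5 and vehicle replicate 2 of 2 months, the median THC difference of the 9 genes at 12 months was 0.27. Meninges and fibroblast markers were lower with THC in 11 of 11 genes (median -0.55), with mean levels of 6.95 to 7.60 with THC and 7.62 to 8.21 with vehicle, which did not overlap. Blood markers were lower in 4 of 4 genes (median -0.38), neocortex markers in 7 of 7 (median -0.26) and thalamus markers in 7 of 9 (median -0.30). With the slide as a block the thalamus direction turned, with 5 of 9 genes higher and a median of 0.14. The medians with the block stayed below 0 for meninges and fibroblasts (-0.56), blood (-0.25) and neocortex (-0.39). THC replicate 5 had the lowest neocortex level of its group, 7.72. In thalamus markers THC replicates 2 to 5 had 7.80, 8.06, 7.74 and 7.82, below every vehicle array of 12 months. THC replicate 1 had 8.71. Microglia markers were higher in 4 of 8 genes and astrocyte markers in 4 of 9. The part of these tissues in the myelin differences was not tested.

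At 2 months, 7 of the 9 genes were higher with THC than with vehicle, by a median of 0.092 and between -0.22 for Cnp and 0.32 for Klk6, where 50.6% of all genes were higher. Of the 22 probes 0 passed and 0 had an unadjusted p under 0.05, where 0% and 6.12% of all probes did, and 0 lay with no overlap between groups, where 5.51% of all probes did so with THC higher and 6.13% with THC lower. THC replicate 1 of 2 months was the highest of all 16 arrays in the mean of the 9 genes, 0.94 above the average array, and the other 2 THC arrays lay at -0.26 and -0.020. This array also had the highest mean level of midbrain markers, 8.42, and of thalamus markers, 9.07, where the other arrays of 2 months lay at 6.07 to 6.91 and 7.27 to 8.60. Without it, the median THC difference at 2 months was -0.20. The difference of the 2 THC responses, 12 minus 2 months, was above 0 for all 9 genes and for 46.1% of all genes, with a median of 0.57 over the 9, and 0 of 22 probes passed, where 0% of all probes did (smallest adjusted p = 0.966 in limma), and 0 had an unadjusted p under 0.05, where 5.21% of all probes did. With the slide as a block, the median THC difference at 2 months was 0.24 and that of Klk6 1.22, and 3 of the 22 probes had an unadjusted p under 0.05, where 10.1% of all probes did. For the difference of the responses 10 of the 22 did with the block, where 10.4% of all probes did, with a median of 0.82. None of the 22 passed in either with the block (smallest adjusted p = 0.231 and 0.378 in limma).

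With age in vehicle mice, 0 of the 22 probes passed, where 0% of all probes did, and 3 genes had an unadjusted p under 0.05: Cnp, Opalin and Mal, all lower, where 2.23% of all genes were. The vehicle groups did not overlap in 2 probes, both lower at 12 months, where 1.22% of all probes lay lower in this way. Within the slides that held both groups, the median over the 9 genes was -0.76 on slide 1, -0.52 on slide 2 and -0.34 on slide 4. Slides 1 and 2 each compared 2 arrays of 12 months with 1 of 2 months, and slide 4 compared 1 with 1. The brightest Mal probe differed by -0.87, -0.89 and -0.87 on them, and Mal probe ILMN_1224029 by -0.67, -0.44 and -0.12. Vehicle replicate 3 of 12 months, on slide 2, was the lowest of all 16 arrays, at -0.69. Marker lists of other tissues differed with age in vehicle mice as well. Markers were higher at 12 months in 11 of 11 genes for meninges and fibroblasts (median 0.86), 4 of 4 for blood (median 1.08) and 9 of 9 for thalamus (median 0.81). They were lower in 9 of 9 for choroid plexus (median -1.48), some of them detected on few arrays, and 7 of 7 for striatum (median -0.29). Their part in the age differences of the myelin genes was not tested.

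In THC mice 3 of 9 genes were higher at 12 than at 2 months, with a median of -0.039 and a range of -0.22 to 0.18, where 43.8% of all genes were higher and 0% of probes passed. With the slide as a block the direction turned, with 7 of 9 genes higher and a median of 0.10, where 43.2% of all genes were higher. Within slide 3 the median was 0.21 (3 arrays against 1) and within slide 4 it was 0.25 (1 against 1). Each of these medians rests on a single THC array of 2 months. Without the block, none of the 22 probes passed (smallest adjusted p = 0.696 in limma) or had an unadjusted p under 0.05, where 7.33% of all probes did. The smallest adjusted p with the block was 0.334 in limma. Between THC mice of 12 months and vehicle mice of 2 months, 5 of 9 genes were higher, with a median of 0.0007, where 45.6% of all genes were higher and 0.00442% of probes passed, 0 of them a myelin probe (smallest adjusted p = 0.996 in limma). At an unadjusted p under 0.05, 0 of the 22 were called in this comparison, where 4.48% of all probes were. With the slide as a block 8 of 9 genes were higher between these groups, where 48.0% of all genes were, by a median of 0.41. The smallest adjusted p was then 0.0701, for Klk6, where 0.00884% of all probes passed. The mean of the 9 genes, centred on the average array, was 0.15 ± 0.48 with THC at 12 months, -0.38 ± 0.28 with vehicle at 12 months, 0.22 ± 0.64 with THC at 2 months and 0.15 ± 0.28 with vehicle at 2 months (SD, n = 5, 5, 3 and 3). The ranges of all 4 groups overlapped.

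Probes of the same gene did not always move together. Mbp probe ILMN_3011353 ran against the brightest Mbp probe over the 16 arrays (r = -0.756). It read 9.29, 9.59, 9.56, 9.39 and 9.31 with THC at 12 months, against 9.64, 9.98, 9.52, 9.52 and 9.86 with vehicle, and was the only one of the 22 probes lower with THC at that age, by -0.27 ± 0.14. With the slide block its difference was -0.55 ± 0.12 (adjusted p = 0.0771). Its annotated transcript is also that of Mbp probe ILMN_3081854, which was higher with THC by 0.75 ± 0.32. The 2 tested Mal probes correlated at r = 0.283, and vehicle replicate 4 of 12 months, the highest of its group in the brightest probe at 10.30, lay in the middle of its group in the other, at 8.63. Both Mog probes ran together (r = 0.948), as did both Cnp probes (r = 0.825).

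**Figure D3:**
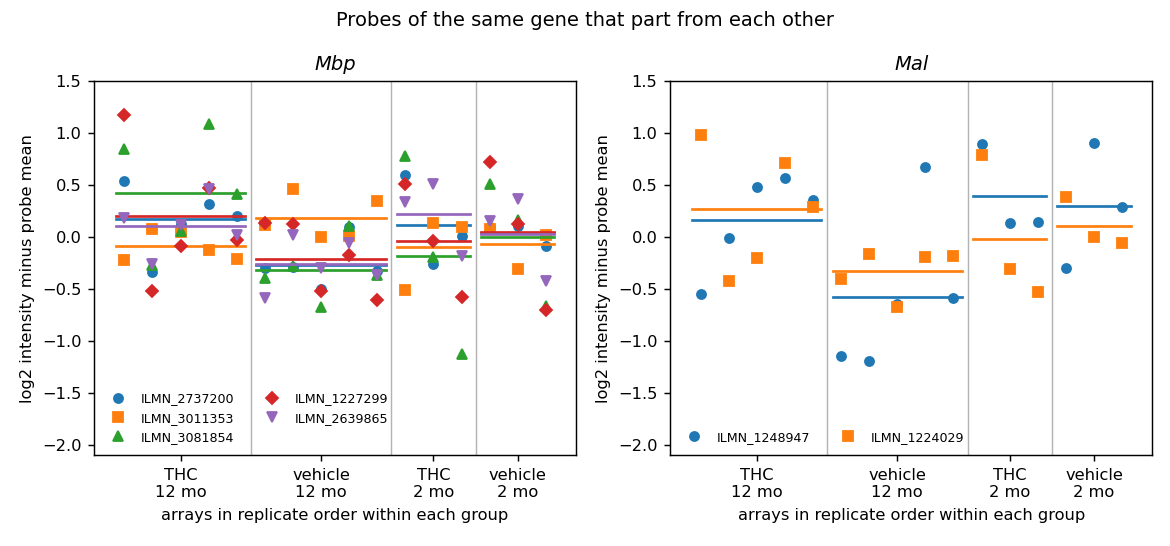
Log2 intensity of each tested Mbp probe (left) and Mal probe (right) minus its own mean over the 16 arrays (vertical axis), for every array in replicate order within the 4 groups, with a horizontal line for each probe's group mean. The group mean of Mbp probe ILMN_3011353 is the lowest of the 5 Mbp probes with THC at 12 months and the highest of them with vehicle at 12 months.

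Across the 16 arrays most of the genes were high and low on the same arrays, which is given as a description, since the arrays share slides and a normalization. The correlation of a gene with the mean of the other 8 was 0.961 for Mbp, 0.910 for Mag, 0.900 for Cnp, 0.893 for Opalin, 0.862 for Mog and 0.840 for Cldn11. It was lower for Mobp (0.764), Klk6 (0.732) and Mal (0.401). The array that read highest within the THC group of 12 months, replicate 1, was high in Mag, Mog, Cnp, Cldn11 and Klk6 but lowest of its group in the brightest Mal probe, at 9.08. In the other tested Mal probe it was the highest of its group, at 9.81.

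Among the 12011 other genes, those most like the mean of the 9 were Tmem125 (r = 0.956), Aspa (0.950), which breaks down N-acetylaspartate in oligodendrocytes, Fa2h (0.937), which hydroxylates the fatty acids of myelin lipids, Evi2a (0.929), Rhog (0.927), Gal3st1 (0.921), which makes sulfatide, Prr18 (0.919), Adamts4 (0.915), a matrix protease, Slc44a1 (0.914), a choline transporter, and Pigh (0.911). Their THC differences at 12 months ran from 0.36 for Pigh to 0.70 for Adamts4, and 0 passed (adjusted p = 0.916 for each in limma). The genes most like Klk6 were Kcng4 (r = 0.951), a potassium channel subunit, Rimkla (0.944), which synthesizes N-acetylaspartylglutamate, and Cpm (0.906), a carboxypeptidase.

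Other genes of oligodendrocytes were taken as lists by their role. Of 19 tested genes for other myelin and oligodendrocyte membrane proteins, 18 were higher with THC at 12 months (median 0.37) and 15 were lower at 12 than at 2 months in vehicle mice (median -0.22). Car2, a carbonic anhydrase, was higher with THC by 0.53 ± 0.19 and Plekhb1 by 0.44 ± 0.18, while Omg, a myelin glycoprotein also made by neurons, differed by -0.057 ± 0.14. Of 9 tested genes of myelin lipid synthesis, 8 were higher with THC (median 0.39) and 8 were lower with age (median -0.32), among them Aspa with 0.48 ± 0.19 and Cers2, a ceramide synthase, with 0.39 ± 0.16 for THC. None of these genes passed in either comparison.

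Of 7 tested transcription factors of the lineage, 6 were higher with THC at 12 months (median 0.21), including Olig1 by 0.47 ± 0.14 and Sox10 by 0.53 ± 0.23, while Tcf7l2 differed by -0.30 ± 0.52. Myrf and Olig2 were detected on 0 arrays. The precursor genes were split, with 5 of 10 higher (median -0.013): Cspg4, a surface proteoglycan of precursors, differed by -0.30 ± 0.15, and Enpp6, an enzyme of newly forming oligodendrocytes, by 0.61 ± 0.25. With age in vehicle mice 4 of the 10 precursor genes were higher and 6 lower (median -0.018), of which Gpr17, a receptor of committed precursors, differed by -0.66 ± 0.15 (adjusted p = 0.685 in limma) and Enpp6 by -0.81 ± 0.29. Of 11 genes of the node and paranode, the axonal sites at and beside the gaps between myelin segments, 5 were higher with THC (median -0.0064). For peripheral myelin 2 of 3 were. The mean of each list correlated with the mean of the 9 genes over the 16 arrays at r = 0.976 for the membrane proteins, 0.962 for lipid synthesis, 0.826 for the transcription factors, 0.374 for precursors, 0.110 for peripheral myelin and -0.126 for node and paranode.

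**Figure D4:**
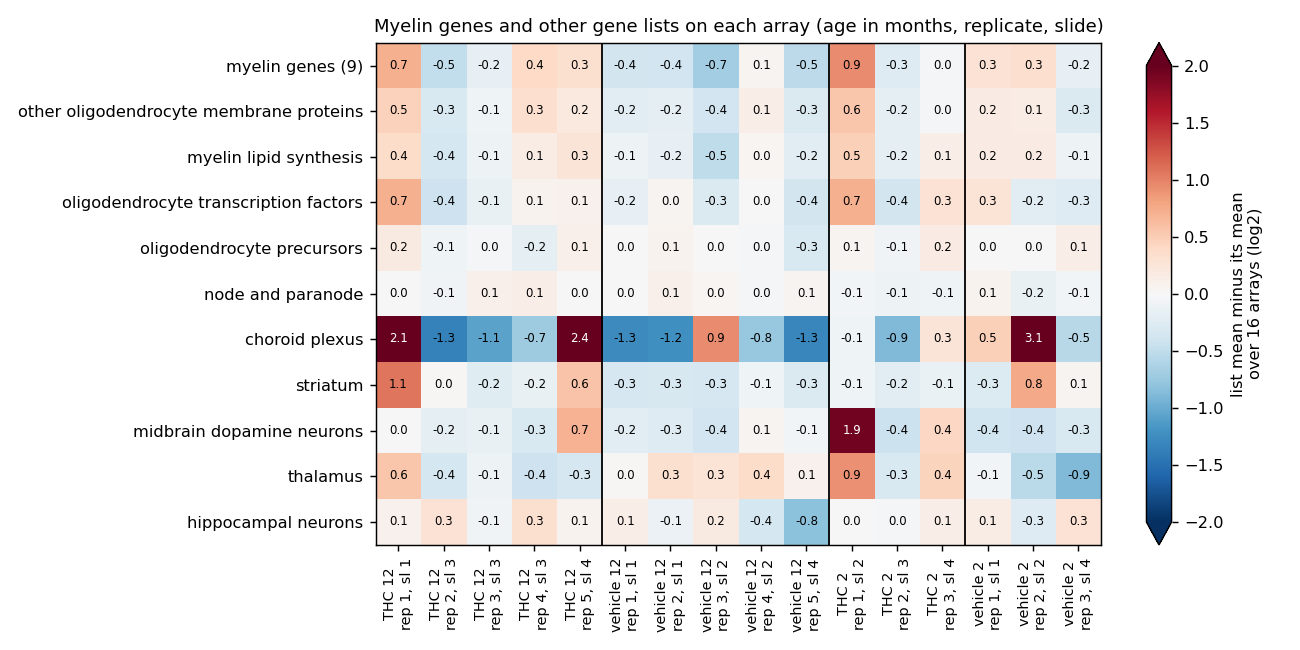
Mean log2 level of each gene list on each array, minus the list's own mean over the 16 arrays, in colour and printed in the cell, with arrays in columns by group (THC at 12 months, vehicle at 12 months, THC at 2 months, vehicle at 2 months) and lists in rows. The first 4 rows are high together in THC replicate 1 of 12 months and THC replicate 1 of 2 months, and choroid plexus markers are high in THC replicates 1 and 5 of 12 months and vehicle replicate 2 of 2 months.

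In the authors' normalized series matrix the THC difference at 12 months was 0.71 for Opalin, 0.64 for Mobp, 0.65 for Mal, 0.46 for Cnp, 0.44 for Mbp and 0.31 for Klk6, and their scanner table read 8.25, 7.09, 7.12, 7.42 and 8.10 for Klk6 with THC, against 7.04, 7.04, 7.12, 7.37 and 6.76 with vehicle. These values carry no background correction of the kind used above, after which Klk6 differed by 0.46 and Mbp by 0.44.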

How the data were processed

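RNA of hippocampus was measured on 16 one-colour Illumina arrays, 1 per sample. The scanner table deposited holds log2 intensities, not normalized between arrays, with a detection p-value per probe, per the file headers. The series matrix, also deposited, has log2 values within 0.00713 of a quantile normalization of the scanner values. Partek is named with no role in the submitters' processing notes. How the scanner treated background is not given in the sources used here. On 1 array, 26 detection p-values held text. They were set to missing in the filter and interpolated over intensity for the background correction.

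Groups and slides came from the labels and headers. Values were corrected and quantile normalized by neqc with an offset of 16 (limma 3.58.1, R 4.3.3). A probe was tested where its detection p lay under 0.05 on 3 or more arrays, which left 22625 probes for 12020 genes. The model had 1 mean per group over all 16 arrays and a two-sided moderated test. It was also run on simulated data with independent noise and no slide effect, which cannot test how it handles the slides. A gene was taken by its brightest probe. Symbols came from the platform annotation, and all 23 myelin probes matched RefSeq by Entrez ID. The number of arrays limits the precision.

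The myelin genes and the lists were chosen with earlier results of these data known. The rule for named genes took all probes of the 9 genes, the 2 genes of smallest p in each direction per list, of which some are printed, the 10 genes most like the mean of the 9 and the 3 most like Klk6. Alternatives changed the normalization, the filter, the slide terms and the arrays included. Figures were drawn with matplotlib 3.10.9.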

Additional observations from a re-analysis of the deposited data

How the results depend on the processing

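For the 6 comparisons, 0 of the 22 myelin probes passed under every alternative of normalization, filter, variance model, threshold of 0.1, arrays of the compared groups only, random slide block and single arrays left out, with 1 exception. With the slide as a fixed block, 2 probes passed for THC at 12 months and the median difference was 1.00, against 0.48 without it, and within slide 1 the median was 1.06. Leaving out each array in turn from the model with the block, which was added after seeing the data, gave 0 to 3 passing probes and a median of 0.85 to 1.18. For THC at 12 months against vehicle at 2 months the same steps gave 0 to 1 passing probes and a median of 0.36 to 0.47. The count for THC at 12 months was 0 without THC replicate 1, THC replicate 5 or vehicle replicate 1, 1 without vehicle replicate 2 or 5, and 3 without THC replicate 2. Without the block, leaving out single arrays gave medians of 0.32 to 0.67 for THC at 12 months, -0.20 to 0.26 for THC at 2 months, -0.58 to -0.28 for age with vehicle, -0.30 to 0.30 for age with THC, and 0.31 to 0.86 for the difference of both THC responses. The median for THC at 2 months changed sign without 2 of the 16 arrays. Without the arrays high in markers of other tissue (THC replicates 1 and 5 of 12 months and vehicle replicate 2 of 2 months), the median for THC at 12 months was 0.27. The cause of these shifts was not tested. No paired analysis was possible because the labels give no replicate number shared between groups, and the slide, which ties arrays across groups, was used as the block instead. With it the median for age with THC was 0.10, against -0.039 without. Dim probes such as Klk6 lay near background on some arrays, which limits their precision.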
